A study of Homo sapiens with 5 samples.

Results

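TEAD4 is a transcription factor of the Hippo pathway, and 2 of the 5 sequenced H157 lines differ in which of its isoforms was expressed together with YAP. H157 cells come from a human lung carcinoma. The comparison described here sets the library of cells expressing YAP and the shorter form (YAP/TEAD4-S, titled with the number 305) against the library of cells expressing YAP and the full-length form (YAP/TEAD4-FL, titled with the number 434). The 3 remaining lines carried a vector control, YAP by itself, or YAP together with RBM4, a splicing factor (YAP/RBM4), and serve to show where each of the 2 libraries lay and enter the mean level that decides which genes are compared. All 5 were described as stable lines, grown in RPMI-1640 medium with fetal bovine serum and collected in mid-log phase. The control was labelled pCDNA, whereas pCDH lentiviral plasmids appear in the methods for making stable lines. Each line gave 1 library, so clonal differences between lines cannot be told apart from the isoform, and no test between lines was possible.

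In the Hippo pathway, the kinases MST and LATS phosphorylate the co-activators YAP and TAZ and keep them out of the nucleus. When the kinases are inactive, YAP enters the nucleus and binds TEAD proteins, which hold it on DNA at target genes for matrix proteins, cytoskeleton and growth. A TEAD protein binds DNA with its N-terminal TEA domain and binds YAP with its C-terminal domain. Translation of the shorter form begins past the TEA domain, and the part that contacts YAP is left, so the comparison asks how the transcriptome differed with and without the DNA-binding part.

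The lost part is set by exon 3 of TEAD4. In the GENCODE annotation on hg19, TEAD4 lies on the plus strand of chromosome 12 from 3068496 to 3149842. Exon 3 spans 3103904 to 3104158 (255 bases), of which 226 bases are coding. The transcript that holds it has 1302 coding bases or 434 codons and opens at a TTG codon. A transcript without exon 3 opens at an ATG in exon 6, at position 3126597, and has 915 coding bases or 305 codons in the same frame, so 129 codons are lost. Those codon numbers are the numbers in the 2 sample titles. The coding part of exon 3 and the whole of exon 6 (3126564 to 3126692) are shown because they are the exon that separates the isoforms and the exon where the short one opens. Capitals mark CGGCCGG in exon 3, letters of the kind that RBM4 binds, and the start codon in exon 6.
TEAD4 exon 3, coding part, chr12:3103933-3104158 (+): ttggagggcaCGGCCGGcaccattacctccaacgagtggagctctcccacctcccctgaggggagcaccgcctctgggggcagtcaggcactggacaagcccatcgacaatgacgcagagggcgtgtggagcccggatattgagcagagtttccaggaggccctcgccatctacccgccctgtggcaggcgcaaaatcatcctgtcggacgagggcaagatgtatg
TEAD4 exon 6, chr12:3126564-3126692 (+): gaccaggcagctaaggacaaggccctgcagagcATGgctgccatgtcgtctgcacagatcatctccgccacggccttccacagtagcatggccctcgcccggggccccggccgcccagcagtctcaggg

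The expected counts (estimates of the reads of each gene, not always whole numbers) summed to 2396789 in the YAP/TEAD4-FL (full-length) library and 3015173 in the YAP/TEAD4-S (short) library. Across the other 3 libraries the totals ran from 1399452 to 2619399. Levels are given in CPM, counts scaled to a fixed library total, and a run of 5 levels gives the vector library first, then YAP, full-length, short and YAP/RBM4. At these depths 1 count was worth 0.417 CPM in the full-length and 0.332 CPM in the short library. TMM factors, which align the bulk of the genes rather than the totals, were 1.07 and 0.816 for the same libraries. Ratios of single genes are on library totals unless TMM factors are named, and TMM factors raise every ratio of short to full-length by the same factor. Beside each ratio stands its exact 95% Clopper-Pearson interval, made from counts rounded to whole numbers, so that it holds counting error and not the spread between cultures. Second strand is written in the column names of the table, and antisense genes were among the most abundant. VIM-AS1 was at 14327 CPM in the full-length library and 12487 in the short one, while VIM, the intermediate filament gene opposite to it, was at 472 and 353 CPM. It was not established here that the counted strand is the sense strand of these libraries. If it is the opposite one, a printed level counts antisense reads of that gene, and a run of T in a transcript is a run of A in the RNA counted; if strand was not kept, reads of a gene and of its antisense partner are mixed.

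Cell type markers were compared over whole lists. The sum of the 5 epithelial markers was 1402 CPM for YAP/TEAD4-FL against 561 for YAP/TEAD4-S, and from 517 to 749 elsewhere. Most of that sum came from KRT8 and KRT18. CDH1, the epithelial cadherin, was at 91.0 and 80.4 CPM (ratio 0.882, 0.732 to 1.06), while EPCAM was at 0 for YAP/TEAD4-S and at 0.417 CPM for YAP/TEAD4-FL, and the part of these markers in the results was not tested. The 3 lung squamous markers summed to 0.417 and 1.66 CPM in the full-length and short libraries, and TP63 was at 0 in all 5 libraries. The 4 lung alveolar markers summed to 21.3 and 28.8 CPM, all from SFTPB, with NKX2-1 and SFTPC at 0 in all 5. The sums for the full-length and short libraries were 131 and 99.9 CPM for 5 endothelial markers, 17.2 and 7.74 for 6 fibroblast markers, 12.9 and 11.6 for 5 neural markers, 0.834 and 0.332 for 4 muscle markers, and 0 in both for 3 liver markers. The 6 leukocyte markers reached 398 CPM for YAP/TEAD4-FL against 364 for YAP/TEAD4-S, most of it from PTPRC (218 and 214 CPM) and LYZ, with CD3E at 0 in all 5.

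The constructs could be seen in the counts. TEAD4 was at 121 CPM in the full-length and 50 in the short library, against 3.73 in the vector, 3.57 in the YAP and 5.73 in the YAP/RBM4 library. The 2 TEAD4 libraries therefore stood far above the other 3, with the full-length library the higher. The TEAD4 level with YAP/TEAD4-S was 0.415 of that with YAP/TEAD4-FL (95% interval 0.339 to 0.507) on library totals. With TMM factors it was 0.546 (0.446 to 0.667). The short coding sequence has 70.3% of the bases of the long one, and a shorter RNA gives fewer reads per molecule. That share lies above both intervals, and the part of RNA length in the TEAD4 counts was not tested. The gene counts do not separate the isoforms.

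YAP1 also differed, although both lines were made to express YAP. Its level was 136 CPM in the full-length and 59.4 in the short library, against 33.1 in the vector, 102 in the YAP and 103 in the YAP/RBM4 library. The YAP/TEAD4-S library thus held less YAP1 than the other 3 libraries made to express it and more than the vector. Its ratio to YAP/TEAD4-FL was 0.438 (95% interval 0.363 to 0.527), and exons of other genes on the opposite strand cover 10.1% of its exon bases. The lower level of YAP1 moves with every difference between the 2 libraries, and its part in them cannot be told apart from that of the isoform.

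**Figure D1:**
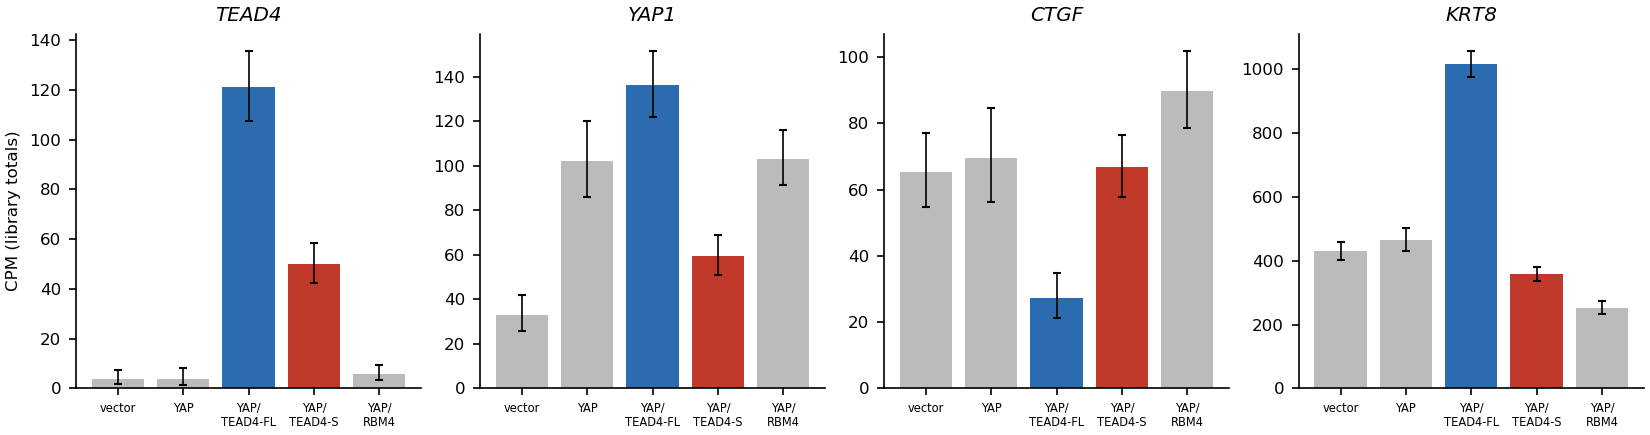
Levels of TEAD4, YAP1, CTGF and KRT8 in the 5 libraries, in CPM on library totals; each bar is 1 library, and the error bars are exact 95% Poisson intervals of the count, which cover counting error only. TEAD4 stood at 121 CPM with YAP/TEAD4-FL and 50 with YAP/TEAD4-S, CTGF was lowest with YAP/TEAD4-FL (27.4 CPM) and KRT8 highest there (1017 CPM).

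The paralogs and the partner of YAP differed less. TEAD1 was at 27.9 CPM in the full-length and 20.1 in the short library (ratio 0.724, 0.503 to 1.04). TEAD2 had a ratio of 0.586 (0.346 to 0.980). TEAD3, at 5.01 and 6.32 CPM, had a ratio of 1.26 (0.580 to 2.84). WWTR1, which encodes TAZ, had a ratio of 0.736 (0.590 to 0.917). VGLL3, a cofactor that binds TEAD proteins in the place of YAP, had a ratio of 0.580 (0.411 to 0.814). The intervals of TEAD1, TEAD2, TEAD3, WWTR1 and VGLL3 include the ratio at the median of all genes, which was 0.769 on library totals. No gene of the list of YAP, TAZ, TEAD and VGLL genes, 8 of 10 of which were compared, reached a 2-fold difference on both scalings.

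Of 25343 genes in the table, 8305 averaged 10 CPM or more across the 5 libraries and were compared. The median log2 ratio of short to full-length (0.5 CPM added) was -0.38 on library totals, with quartiles at -0.59 and -0.17. With TMM factors the median was 0.01, a shift of 0.39, with quartiles at -0.20 and 0.21. Most genes therefore lay a little lower on the totals with YAP/TEAD4-S and did not with TMM factors. A gene was counted as higher or lower only when the difference reached 2-fold in the same direction on both scalings. By this rule 64 genes were higher with YAP/TEAD4-S (0.771% of those compared) and 70 were lower (0.843%). On library totals alone 64 were higher and 382 lower, so that 14.3% of the differences were upwards. With TMM factors alone 120 were higher and 70 lower, or 63.2% upwards. The counting interval lay beyond 1 on both scalings for all 64 and all 70 genes. The 2 directions differed in size, since 35 of the higher genes and 8 of the lower genes passed 3-fold.

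**Figure D2:**
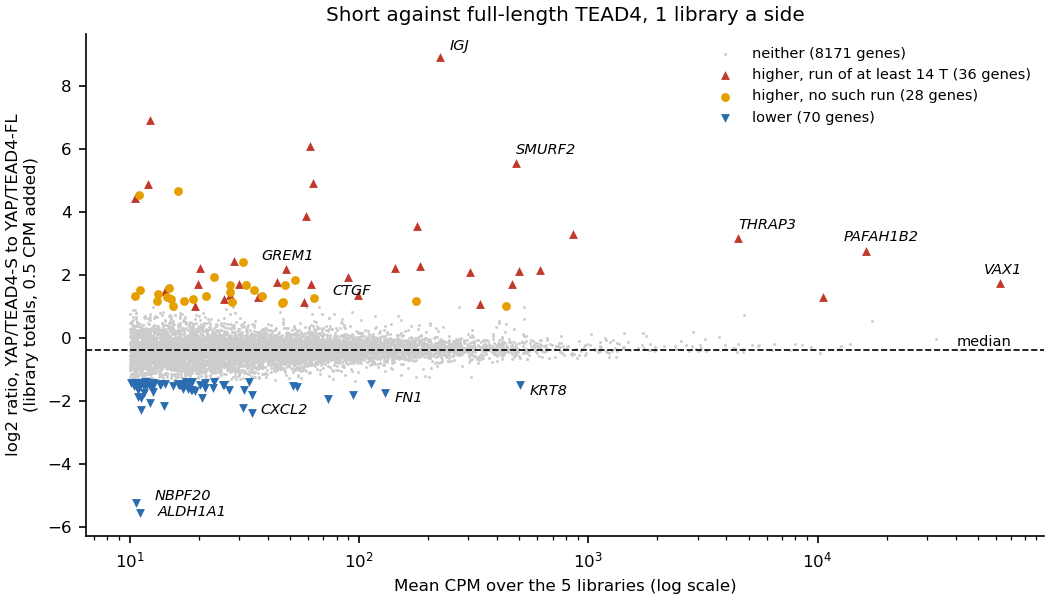
Log2 ratio of the short to the full-length library on library totals (vertical axis, 0.5 CPM added) against the mean CPM over the 5 libraries (horizontal axis, log scale); each point is 1 of 8305 genes, coloured where the ratio passed 2-fold on both scalings. Higher genes with a run of at least 14 T in a transcript (36, red) reached the highest ratios and levels, the 28 other higher genes (orange) include CTGF and GREM1, and the dashed line is the median at -0.38.

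On library totals, the higher genes fell into 2 kinds by the library that stood apart. In 31 of the 64, YAP/TEAD4-S lay above the vector, YAP and YAP/RBM4 libraries and YAP/TEAD4-FL did not lie below them. In 25, YAP/TEAD4-FL lay below those 3 libraries and YAP/TEAD4-S did not lie above them. In 6 both held, and in 2 neither did. Over all compared genes, YAP/TEAD4-S was the highest of the 5 libraries in 1.55% and YAP/TEAD4-FL the lowest in 6.96%. Among the higher genes the shares were 57.8% and 50%. These shares follow in part from the rule that chose the genes. The kinds were drawn up after the values were seen. They also depend on the scaling. With TMM factors (0.816 for YAP/TEAD4-S, 1.00 to 1.12 elsewhere) the YAP/TEAD4-S levels rise against the other libraries. Some genes, CTGF and RASAL1 among them, then change kind.

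**Figure D3:**
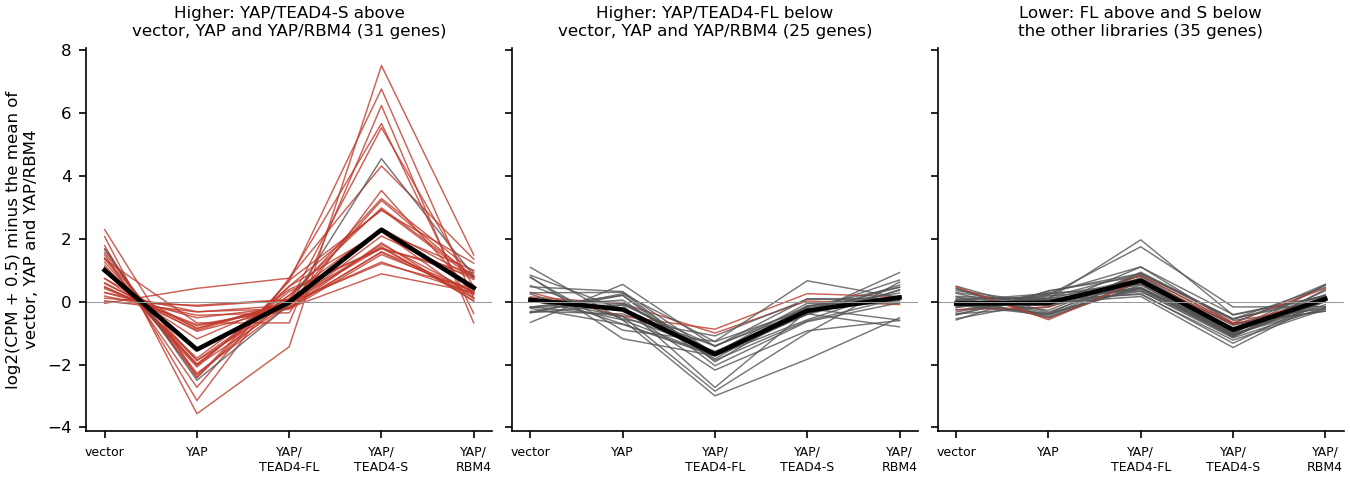
Levels of the called genes across the 5 libraries, as log2(CPM + 0.5) minus the mean of that value over the vector, YAP and YAP/RBM4 libraries; each thin line is 1 gene, red where a transcript holds a run of at least 14 T, and the thick line is the median. In the left panel (31 genes) YAP/TEAD4-S stood above the other libraries, in the middle panel (25 genes) YAP/TEAD4-FL stood below them, and in the right panel (35 genes) YAP/TEAD4-FL stood above and YAP/TEAD4-S below the 3 others.

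Among the genes that were low with YAP/TEAD4-FL, CTGF (also named CCN2), a matricellular protein and a much used target of YAP, was at 27.4 CPM in the full-length and 66.7 in the short library, against 65.2 in the vector, 69.4 in the YAP and 89.7 in the YAP/RBM4 library. On library totals the YAP/TEAD4-FL library was the one that stood apart, and YAP/TEAD4-S lay close to the vector and YAP libraries. With TMM factors YAP/TEAD4-S lay above both of these, its factor being 0.816 against 1.00 and 1.02. The ratio of short to full-length was 2.42 (95% interval 1.82 to 3.25) on library totals and 3.18 (2.40 to 4.27) with TMM factors. CTGF lies on the minus strand of chromosome 6 from 132269316 to 132272512 on hg19, and LINC01013, on the other strand, covers 11.9% of its exon bases.

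GREM1, a secreted antagonist of bone morphogenetic proteins, was at 5.42 CPM in the full-length and 31.2 in the short library, against 30.3 in the vector, 35.7 in the YAP and 53.4 in the YAP/RBM4 library. Its ratio was 5.75 (3.2 to 11.2), the largest of the 25 genes of this kind. SMOC1, a secreted calcium-binding matrix protein, was at 61.5, 50, 9.18, 34.5 and 107 CPM. SMOC1 was therefore also below the vector with YAP/TEAD4-S, and its ratio was 3.76 (2.36 to 6.25). HTRA1, a secreted serine protease, had 47.6, 24.3, 12.1, 35.8 and 55.4 CPM and a ratio of 2.96 (1.95 to 4.63). TFPI2, a protease inhibitor of the matrix, had 36.8, 25.7, 12.5, 32.3 and 81.6 CPM and a ratio of 2.60 (1.71 to 4.05). EFEMP1, a fibulin of the matrix, had 42.4, 40, 19.6, 42.8 and 85.1 CPM and a ratio of 2.18 (1.55 to 3.12). In all of these the YAP/TEAD4-FL library was the lowest of the 5 and the YAP/RBM4 library the highest.

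Other genes of this kind encode membrane proteins and signalling proteins. AMIGO2, an adhesion protein of the leucine-rich repeat family, was at 10.0 CPM in the full-length and 28.5 in the short library, against 34.0 in the vector, 27.2 in the YAP and 37 in the YAP/RBM4 library, a ratio of 2.85 (1.79 to 4.68). PCED1B, which lies opposite to AMIGO2 in part, had a ratio of 3.37 (2.08 to 5.71), so the pair is not independent. RASAL1, a GTPase-activating protein for RAS, was at 37.5, 11.4, 8.81, 34.9 and 24.0 CPM and had a ratio of 3.97 (2.47 to 6.69). OSM, a cytokine of the interleukin-6 family, rested on 9 counts with YAP/TEAD4-FL and 29 with YAP/TEAD4-S, a ratio of 2.56 (1.18 to 6.15). POLR2B, a subunit of RNA polymerase II, lies opposite to IGFBP7 in part and had a ratio of 2.28 (1.38 to 3.89). In 16 genes of the 64, CTGF, GREM1, SMOC1, TFPI2, EFEMP1 and AMIGO2 among them, the level with YAP/TEAD4-FL was at most 0.5 of that in each of the other 4 libraries after 0.5 CPM was added to every level.

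The genes that were high with YAP/TEAD4-S were of another sort and included VAX1, the most abundant gene of the table. IGJ (also named JCHAIN), the joining chain of polymeric immunoglobulins, was at 1.69 CPM in the full-length and 1081 in the short library, against 24.4 in the vector, 0 in the YAP and 16.1 in the YAP/RBM4 library. Its ratio was 647 (95% interval 253 to 2378), the largest of the comparison. SH3BGRL2 was at 60.1 CPM with YAP/TEAD4-S and had no count with YAP/TEAD4-FL, which makes it at least 48.0-fold higher against a floor of 3 counts in that library. MSI1, an RNA-binding protein of neural progenitors, was at 12.4, 0, 3.63, 286 and 2.32 CPM, a ratio of 76.3 (40 to 167). NCS1, a neuronal calcium sensor, had a ratio of 31.6 (20.7 to 50.7), and WNK3, a kinase that regulates chloride cotransporters, of 15.2 (10.8 to 22.0). LCOR, a nuclear receptor corepressor, rested on 2.72 counts with YAP/TEAD4-FL and had a ratio of 38.7 (13 to 190). In each of these the YAP/TEAD4-S library alone was high.

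Several of these genes reached high levels. SMURF2, a ubiquitin ligase of the TGF-beta pathway, was at 45.5 CPM in the full-length and 2177 in the short library, against 123 in the vector, 12.3 in the YAP and 64.7 in the YAP/RBM4 library, a ratio of 47.9 (39.6 to 58.4). FZD5, a WNT receptor, was at 111, 3.16, 54.1, 645 and 82.2 CPM, a ratio of 11.9 (9.95 to 14.3). SRGAP1, a GTPase-activating protein of the SLIT and ROBO pathway, was at 703, 71.2, 279, 2741 and 501 CPM, a ratio of 9.84 (9.09 to 10.7). THRAP3, a splicing and mRNA decay factor, was at 3765, 289, 1570, 14103 and 2795 CPM, a ratio of 8.98 (8.69 to 9.29). The order of the libraries was the same in these 4 genes, with YAP/TEAD4-S highest, then the vector, YAP/RBM4 and YAP/TEAD4-FL, and YAP lowest. CALR, the calreticulin chaperone of the endoplasmic reticulum, was at 350, 325, 370, 1656 and 381 CPM, a ratio of 4.48 (4.17 to 4.82), and GPI, a glycolytic enzyme, at 339, 283, 324, 1059 and 319 CPM, a ratio of 3.27 (3.02 to 3.54). In CALR and GPI the other 4 libraries lay near one another.

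These genes shared a sequence feature that the comparison had not used. A run of at least 14 T in a row in an annotated transcript was present in 30 of the 30 genes of this kind with an annotated transcript, with a median longest run of 23 T. The 31st, LOC102723517, had no match in the annotation used here. Of the 64 higher genes 6 reached a mean of 10 CPM only with the full-length and short libraries counted in (SH3BGRL2, MSI1, NCS1, LCOR, PRICKLE2 and LOC102723517), and 4 of these were of this kind. Without them 27 of 27 held such a run, with a median of 24 T. Among the 25 genes that were low with YAP/TEAD4-FL, 2 held such a run, with a median longest run of 6 T. Over all compared genes with transcripts, 2136 of 8036 (26.6%) held such a run, against 36 of 63 higher genes (57.1%) and 7 of 65 lower genes (10.8%). The length of 14 was chosen after the data were seen, and VAX1, the most abundant gene, has a longest run of exactly 14. The share of genes that were higher was above that of all compared genes (0.771%) only where the longest run was at least 20 T. It was 0.643% with a longest run under 8 T, 0.228% from 8 to 13, 0.729% from 14 to 19, 2.78% from 20 to 25 and 5.29% over 25. The share of lower genes was 1.07%, 0.873%, 0.438%, 0.174% and 0 in the same classes, the last being 0 of 189 genes. Runs of A of at least 14, the same feature on the other strand, were present in 25.4% of higher genes and 24.2% of all compared genes, although 2.72% of the 184 genes with over 25 A were higher. The 2 kinds differed here too. Such a run of A was present in 11 of the 30 genes that were high with YAP/TEAD4-S (36.7%) and in 4 of the 25 that were low with YAP/TEAD4-FL (16.0%). The part of runs of T or of A in the counts was not tested.

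The order of the 5 libraries was shared too. In 28 of the 64 higher genes the level ran YAP/TEAD4-S, vector, YAP/TEAD4-FL, YAP from high to low. Over all 8305 compared genes 69 (0.831%) ran in that order. The rule that chose the genes already sets YAP/TEAD4-S above YAP/TEAD4-FL, so the order is given as a description. Of these 28, 27 have an annotated transcript, and all 27 held a run of at least 14 T. Of the 69 over all compared genes, 67 have an annotated transcript, and 47 of the 67 (70.1%) held such a run. In 25 genes YAP/TEAD4-S was at least 2-fold above each of the other 4 libraries (0.5 CPM added), and the 24 of these with transcripts all held such a run. The 25 were picked by the height of YAP/TEAD4-S itself. They include the 6 genes that reached a mean of 10 CPM only with the full-length and short libraries counted in, so the share is a description. In the 16 genes where YAP/TEAD4-FL was at most 0.5 of each other library on the same scale, 0 held such a run. Among the 30 genes of the first kind, 16 also held CC followed by 12 T, against 5.29% of all compared genes, and 0 of the 25 of the other kind did.

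These genes carried weight in the totals. The 36 higher genes with a T run made up 23.8% of the YAP/TEAD4-S counts, against 6.13% for YAP/TEAD4-FL, 9.66% for the vector, 8.77% for YAP/RBM4 and 1.22% for YAP. VAX1, a homeobox gene of the forebrain and eye, alone took 4.22% with YAP/TEAD4-FL and 14.1% with YAP/TEAD4-S, a ratio of 3.33 (3.31 to 3.36). PAFAH1B2, a subunit of an acetylhydrolase, took 0.703% and 4.84%, a ratio of 6.88 (6.78 to 7). The 28 other higher genes together took 0.0478% with YAP/TEAD4-FL and 0.123% with YAP/TEAD4-S. A share gained by a few abundant genes is a share lost by the rest on library totals, and 32.5% of full-length and 46.0% of short counts fell on the 50 most abundant genes.

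The 70 lower genes had a median log2 ratio of -1.53, and most were of low level. Their median of the mean level was 15.9 CPM, against 37 for the higher genes and 34.8 for all compared genes. In 35 of them YAP/TEAD4-FL lay above and YAP/TEAD4-S below the vector, YAP and YAP/RBM4 libraries. In 23 YAP/TEAD4-S lay below those 3 while YAP/TEAD4-FL did not lie above them, in 10 YAP/TEAD4-FL lay above them while YAP/TEAD4-S did not lie below, and in 2 neither held. YAP/TEAD4-S was the lowest of the 5 libraries in 82.9% of the lower genes and in 59.1% of all compared genes on library totals. YAP/TEAD4-FL was the highest in 64.3% and 22.8%.

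KRT8, a simple epithelial keratin and 1 of 2 lower genes among 8 keratin and desmosome genes, was at 1017 CPM in the full-length and 358 in the short library, against 429 in the vector, 465 in the YAP and 253 in the YAP/RBM4 library. The YAP/TEAD4-FL library stood apart above the other 4, and the ratio of YAP/TEAD4-S to it was 0.352 (95% interval 0.327 to 0.378). KRT18, the keratin that pairs with KRT8, was at 150, 160, 293, 123 and 158 CPM and had a ratio of 0.420 (0.369 to 0.476), but its log2 ratio with TMM factors, -0.85, did not reach 2-fold. KRT8 on the other strand covers 17.1% of the exon bases of KRT18. DSC3, a desmosomal cadherin, was at 54.4, 65.9, 63.2, 21.6 and 53.7 CPM. In DSC3 the YAP/TEAD4-S library was the one that stood apart, with a ratio of 0.342 (0.252 to 0.461).

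Among matrix, cytokine and signalling genes, FN1, the fibronectin gene, was at 197 CPM in the full-length and 58.4 in the short library, against 169 in the vector, 88.6 in the YAP and 136 in the YAP/RBM4 library, a ratio of 0.297 (0.248 to 0.354). FN1 lies on the minus strand of chromosome 2 from 216225163 to 216300796 on hg19 and has no exon overlap with other genes. CXCL2, a neutrophil chemokine, was at 35.3, 11.4, 55.4, 11.5 and 41.8 CPM, a ratio of 0.209 (0.140 to 0.306). On library totals its level with YAP/TEAD4-S was that of YAP alone. TNXB, a tenascin, rested on 13 counts with YAP/TEAD4-FL and 2.52 with YAP/TEAD4-S (ratio 0.183, 0.0335 to 0.668) and was highest with the vector, at 51.0 CPM. BMP1, which cleaves procollagens, was at 24.2, 12.9, 20.2, 6.61 and 13.1 CPM, a ratio of 0.331 (0.186 to 0.569). CTSL, a lysosomal cysteine protease, was at 77.9, 23.6, 82.2, 27.5 and 55.7 CPM, a ratio of 0.335 (0.256 to 0.435). SPRED2, an inhibitor of RAS signalling, had a ratio of 0.341 (0.194 to 0.579), and TNFRSF1A, the TNF receptor, of 0.348 (0.198 to 0.592). ID1, an inhibitor of basic helix-loop-helix factors, was at 15.5, 16.4, 28.0, 9.62 and 12.6 CPM.

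Some lower genes were high with YAP/TEAD4-FL alone. For 3 of the 70, ALDH1A1, PPME1 and LY6K, the mean of the vector, YAP and YAP/RBM4 libraries was under 10 CPM, so that these entered the comparison through the other libraries. ALDH1A1, a retinaldehyde dehydrogenase, had 131 counts (54.7 CPM) with YAP/TEAD4-FL, 2 counts (0.663 CPM) with YAP/TEAD4-S and none in the other 3 libraries, a ratio of 0.0121 (95% interval 0.00145 to 0.0447). Of the 13 aldehyde dehydrogenase genes compared it was the one that passed 2-fold on both scalings, and the median of the family was -0.441. KIAA1462 (also named JCAD), a junctional protein, was at 12.1, 14.8, 36.7, 12.4 and 12.4 CPM, with a ratio of 0.334 (0.221 to 0.496). LINC01271, a long non-coding RNA, was at 40.1, 51.4, 169, 43.4 and 60.7 CPM, and LINC01270, on the other strand, covers 31.6% of its exon bases. PPME1, a methylesterase of protein phosphatase 2A, was at 8.39, 5.72, 24.6, 6.96 and 12.2 CPM, a ratio of 0.283 (0.163 to 0.473). In each of these 4 YAP/TEAD4-FL was the highest of the 5 libraries, and YAP/TEAD4-S lay within the range of the other 3 or beside it. NBPF20, a member of a family of near-identical copies, had no count with YAP/TEAD4-S and 18.5 CPM with YAP/TEAD4-FL, at least 18.6-fold lower against a floor of 3 counts in the YAP/TEAD4-S library. WASH2P (14.2 CPM in the full-length, 2.49 in the short library) also has near-identical copies, so the counts of both are uncertain. In NBPF20 and WASH2P the YAP/TEAD4-S library was the lowest of the 5 and YAP/RBM4 the highest, at 27.2 and 24.9 CPM.

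Promoters were searched for GGAATG, the core of the motif that TEAD proteins bind, on both strands, from 250 bases before to 50 bases after each start site in the RefSeq table of GRCh38.p14. A match was present for 16 of the 51 lower genes with a promoter (31.4%), for 9 of the 53 higher genes (17.0%) and for 946 of 6362 compared genes (14.9%). Counted per promoter, since a gene can have several, the shares were 23.6%, 12.3% and 11.6%, against 14% of every promoter in the table. Among genes at least 1.5-fold lower the share of genes was 17.6%, nearer to that of all genes. The lower genes with a match include KRT8, ID1, DST, TOX2, KIAA1462, ATP2B4, KIF2C and GPR39. The list of YAP/TEAD target genes had a match for 9 of the 16 genes with a promoter (56.2%). TGANTCA, the AP-1 motif, was present for 11.8% of lower, 9.43% of higher and 7.92% of compared genes, and the GC box GGGCGG for 60.8%, 69.8% and 72.4%. The 3 motifs were counted separately, so matches of different motifs may overlap. A match describes letters in this window and not a bound site.

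The 250 bases before the start site of CTGF, which was low with YAP/TEAD4-FL, and of KIAA1462, which was high there, are shown because both hold the motif while the 2 genes differed in opposite directions. Capitals mark the matches, of which the table counts 3 for CTGF and 1 for KIAA1462. Both sequences are RefSeq, GRCh38.p14.
CTGF, chr6:131951373-131951622 (-): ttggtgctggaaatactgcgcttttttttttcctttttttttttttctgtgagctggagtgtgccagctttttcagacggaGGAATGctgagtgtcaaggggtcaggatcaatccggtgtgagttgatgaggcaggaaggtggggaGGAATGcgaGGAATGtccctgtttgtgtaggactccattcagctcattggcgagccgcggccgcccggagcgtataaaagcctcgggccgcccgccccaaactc
KIAA1462, chr10:30059587-30059836 (-): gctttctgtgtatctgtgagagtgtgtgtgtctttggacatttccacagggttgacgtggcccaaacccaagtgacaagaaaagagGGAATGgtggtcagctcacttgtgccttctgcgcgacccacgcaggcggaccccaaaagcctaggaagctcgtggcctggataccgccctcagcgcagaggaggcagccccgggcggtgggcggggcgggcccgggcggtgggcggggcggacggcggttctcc

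Most known targets of YAP and TEAD did not reach 2-fold. Of 34 genes in the list of YAP/TEAD targets 25 were compared, 1 was higher (CTGF) and 0 were lower, and the median log2 ratio was -0.241 on library totals and 0.149 with TMM factors, against -0.38 and 0.01 over all compared genes. On TMM factors 17 of the 25 lay above 0 and 8 below. CYR61, a matricellular protein related to CTGF, was at 92.6 CPM in the full-length and 120 in the short library, against 82.5 in the vector, 114 in the YAP and 243 in the YAP/RBM4 library, a ratio of 1.30 (1.1 to 1.54). AMOTL2, which binds YAP, had a ratio of 0.972 (0.717 to 1.32), and CCDC80 one of 1.38 (1.02 to 1.89). AREG, an EGF receptor ligand, was at 21.9, 17.1, 8.76, 12.3 and 34.7 CPM.

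ITGB1, CDH2 and VIM did not reach 2-fold on both scalings. ITGB2, the leukocyte integrin chain, was under the 10 CPM limit and barely detected, with a ratio of 0.397 (0.00674 to 7.63), so a difference was not detectable at this depth. ITGB1 had a ratio of 0.711 (0.600 to 0.843), near the ratio at the median of all genes. CDH2, the mesenchymal cadherin, had 0.954 (0.571 to 1.60) and VIM 0.747 (0.687 to 0.813). With TMM factors these ratios were 1.25 for CDH2 and 0.982 for VIM. Among 19 compared Hippo kinases and scaffolds, 0 were higher and 0 lower, with a median of -0.307. FAT1, a protocadherin that acts on the pathway, had the lowest ratio there at 0.438 (0.263 to 0.715), or 0.576 (0.346 to 0.940) with TMM factors.

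**Figure D4:**
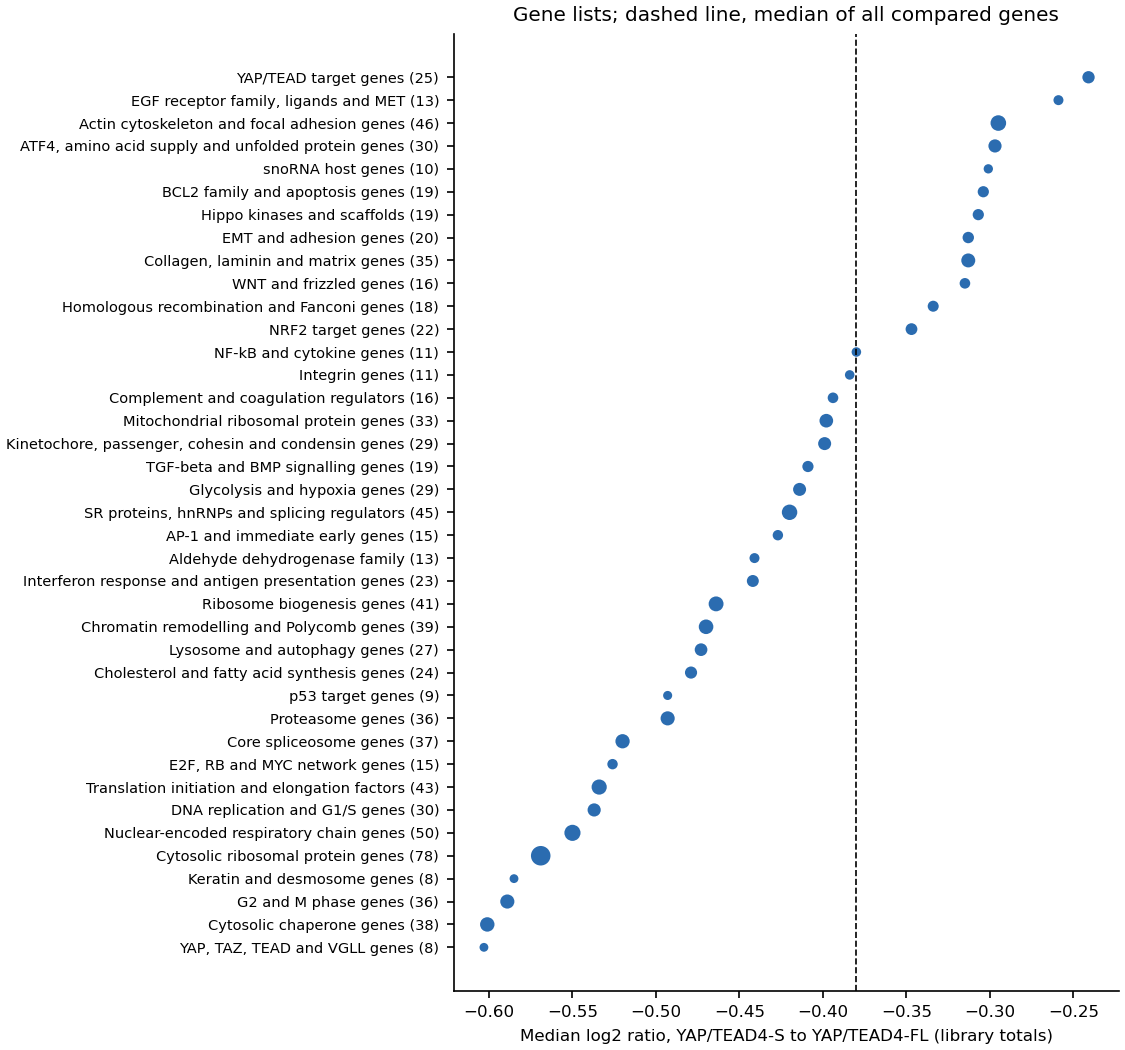
Median log2 ratio of the short to the full-length library on library totals for each gene list with at least 8 compared members; the number after a name and the size of the dot give its compared members, and the dashed line is the median of all compared genes (-0.38). YAP/TEAD target genes lay highest (-0.241), and chaperone genes (-0.601) and the 8 YAP, TAZ, TEAD and VGLL genes (-0.603) lay lowest.

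Several lists of growth genes lay below the median of all genes with YAP/TEAD4-S, by small amounts. Others lay nearer to that median (-0.38), with -0.464 for 41 ribosome biogenesis genes and -0.398 for 33 mitochondrial ribosomal protein genes. The 78 compared cytosolic ribosomal protein genes had a median of -0.569 on library totals, none passed 2-fold on both scalings, and 72 lay below 0 with TMM factors. RPLP2 of the ribosomal stalk was at 109 CPM in the full-length and 53.1 in the short library, against 66.4 to 96.2 elsewhere, a ratio of 0.487 (0.398 to 0.596). The 38 cytosolic chaperone genes had a median of -0.601 with 0 past 2-fold, the 50 respiratory chain genes -0.550 with 1 lower (COX6A1), and the 43 translation factors -0.534 with 0. PFDN2, a prefoldin subunit, had a ratio of 0.467 (0.348 to 0.624). Relative to the median of all genes the lowest of these was -0.223, for the chaperones, and members of a list are not independent of one another.

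Of the 6 cell cycle lists, 3 lay within 0.1 of the median of all genes (-0.38). Homologous recombination genes (18 compared) had a median of -0.334, G1 cyclins, CDKs and their inhibitors (6) -0.326, and kinetochore, cohesin and condensin genes (29) -0.399, with 0 past 2-fold in each. The 36 compared genes of G2 and M phase had a median of -0.589 with 1 lower (KIF2C, a mitotic kinesin, at a ratio of 0.351, 0.177 to 0.661), and the 30 replication and G1/S genes -0.537 with 0. MCM3, a subunit of the replicative helicase, was at 17.2, 20.7, 48.0, 22.2 and 14.5 CPM, a ratio of 0.463 (0.337 to 0.631), with the YAP/TEAD4-FL library highest. CHAF1A, which assembles chromatin behind the fork, was at 5.59, 16.4, 29.6, 12.3 and 11.5 CPM and FASN, the fatty acid synthase, at 57.3, 67.9, 163, 81.9 and 91.7. In these 3 genes YAP/TEAD4-FL again stood highest of the 5, and the difference did not pass 2-fold on both scalings. BRCA1 and BRCA2 had ratios of 1.01 (0.749 to 1.38) and 1.04 (0.771 to 1.4).

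Adhesion and signalling lists held a few members past 2-fold. The 35 matrix genes (median -0.313) held 2 lower genes, FN1 and TNXB, while COL6A2, a collagen VI chain, was at 774, 383, 164, 237 and 474 CPM, lowest with YAP/TEAD4-FL. The 20 EMT genes (median -0.313) held 1 lower gene, again FN1, and the 11 integrin genes (median -0.384) none. The 46 actin and focal adhesion genes had a median of -0.295 with none past 2-fold. The 19 TGF-beta and BMP genes (median -0.409) held 3 higher and 2 lower, against 0.771% and 0.843% of all compared genes. The higher were GREM1, SKIL and SMURF2, and the lower were BMP1 and ID1, the latter a target of BMP signals. With TMM factors 9 of the 19 lay above 0 and 10 below. SKIL and SMURF2 hold T runs of 31 and 17 and belong to the genes that were high with YAP/TEAD4-S. The WNT list held 1 higher gene, FZD5, with a T run of 25, and the EGF receptor list (median -0.259) 1 lower gene, SPRED2.

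Other lists held 1 gene past 2-fold each, beside the same 0.771% higher and 0.843% lower over all compared genes. The higher ones were GPI among 29 glycolysis and hypoxia genes (median -0.414), CALR among 30 genes of ATF4 and the unfolded protein response (-0.297), HNRNPUL2 among 45 SR protein and hnRNP genes (-0.420) and TFPI2 among 16 complement and coagulation genes (-0.394). The lower ones were CXCL2 among 11 cytokine genes (-0.380), CTSL among 27 lysosome genes (-0.473), MRPL38 among 33 mitochondrial ribosomal protein genes (-0.398) and SNHG6 among 10 snoRNA host genes (-0.301). The E2F, proteasome, spliceosome, interferon, p53, AP-1, NRF2 and lipid synthesis lists held none.

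Chromosome, base composition and level were also compared. By chromosome, the median log2 ratio on library totals ran from -0.45 on chromosome 20 to -0.30 on chromosome 18. Chromosome 20 held 8 lower genes of 235 compared (3.40%, against 0.843% of all), LINC01271, MYH7B, TOX2, ID1, NINL, ENTPD6, PREX1 and CSNK2A1. By GC content of the exons, the median went from -0.33 in the lowest quintile to -0.43 in the highest. By mean level, lower genes made up 2.11% of the lowest quintile and 0.181% of the highest. Exon overlap with other genes above 10% was present in 25% of the higher, 25.7% of the lower and 26% of all compared genes.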

How the data were processed

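RNA of 5 H157 lines was sequenced, 1 library per line. The authors used RSEM over Bowtie2, on hg19, and deposited unscaled expected counts, of which 33.4% were not whole. Bowtie2 2.2.5 is named in notes of the submitters, with no RSEM version given in the sources used here. The methods name polyadenylated RNA as well as a total RNA kit with Ribo-Zero, so the RNA selection is uncertain. Lines were assigned from the sample labels.

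CPM were computed on library totals. TMM factors (edgeR 4.0.16) and DESeq2 (1.42.0) size factors came from rounded counts in R 4.3.3; other steps used Python 3.11.15, numpy 2.4.6, pandas 2.3.3, scipy 1.17.1 and matplotlib 3.10.9. Genes averaging 10 CPM or more across the 5 libraries were compared. No test between lines was computed. Scripts were tested on simulated data. GENCODE on hg19 gave exons, overlaps and runs of T for 21537 symbols and 2392 older names; 1414 symbols were not matched.

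Genes named are the construct genes, paralogs and reporter genes, the 10 largest differences per direction without exon overlap above 10%, under 300 exon bases or readthrough names, up to 4 genes of each of 42 lists, and the 5 most abundant. The members and lists were chosen with earlier results of these data known. Genes of the kinds set by the 5 libraries, the T runs, the promoters, chromosome 20, CYR61, AMOTL2, TNFRSF1A and members named as the sole ones past 2-fold were chosen after their values were seen.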

Additional observations from a re-analysis of the deposited data

How the results depend on the processing

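The numbers of genes higher and lower with YAP/TEAD4-S depended on scaling and filter. Library totals alone gave 64 and 382 (main rule, 64 and 70). TMM factors alone gave 120 higher with a median of 0.01, DESeq2 size factors 122 with 0.02, and totals without the 50 most abundant genes 105 with -0.06. A filter at 1 CPM gave 333 and 777, and no filter 605 and 1183 with a median of -0.13. A pseudocount of 2 CPM gave 44 lower. A 1.5-fold threshold gave 130 and 440, and 3-fold 35 and 8. Without genes holding at least 14 T, 27 were higher, and without those holding at least 20 T, 37; both limits were chosen after seeing the data. The causes were not tested, other than that these alternatives count more or fewer genes by construction. With a pseudocount of 0.1 CPM, the filter on the 3 other libraries, the counting interval or no overlapping genes, the counts were 47 to 67 higher and 47 to 77 lower.

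Of 945 values of 189 named genes under alternatives, 800 stayed within the counting interval and 145 moved beyond it. A reversed sign was looked for only in genes past 2-fold on both scalings, and 0 values reversed there. Other named genes did change sign, such as CDH2 (log2 ratio -0.04 on library totals, 0.34 with TMM factors) and VIM-AS1 (-0.2 and 0.2). Of 210 list medians relative to all genes, 206 stayed within 0.1. EMT genes went from 0.066 to -0.075, integrin genes from -0.006 to -0.186 and TGF-beta genes from -0.031 to 0.148 at 1 CPM, and YAP, TAZ, TEAD and VGLL genes from -0.225 to -0.084 with the filter on the 3 other libraries. With 1 library per line, no replicate could be left out. No paired analysis was possible for the same reason.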
